A study of Mus musculus with 2 samples.

Results

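Monocytes marked by Chil3 and Ly6c2 were examined among immune cells sorted from B16 melanomas, 58 of them from tumors that carried a hairpin against syndecan-1 (shSdc1) and 319 from tumors that carried a control hairpin (shRFP). These were 377 of the 10801 cell barcodes that were kept, which numbered 5576 from shSdc1 tumors and 5225 from shRFP tumors. A kept barcode had at least 200 genes and under 10% mitochondrial UMIs, a UMI (unique molecular identifier) being the tag that marks a single captured RNA molecule. A monocyte was selected on its own UMIs. The sum of Hp, Chil3, Plac8, Ifitm6 and Ly6c2 (the monocyte sum) had to reach 4, to be no lower than the sum of Il1a, Il1b, Ptgs2, Cxcl3 and Clec4e (the Il1b sum), and to exceed the sum of C1qa, C1qb and C1qc (the C1q sum). The barcode also needed a UMI of the lysozyme gene Lyz2, no more than 2 UMIs in the sum of Rsad2, Ifit1, Ifit2, Ifit3 and Cmpk2 (the interferon sum), and none of Cd3d, Cd3e, Cd3g or Cd209a. The genes used in the selection are therefore described and not tested.

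Wild-type mice had first been vaccinated under the skin of the left flank with irradiated B16 cells that secrete GM-CSF, a growth factor for myeloid cells, and this vaccination was common to both groups. The right flank then received B16 cells with the shSdc1 hairpin or B16 cells with the shRFP hairpin 12 days later, and tumors were taken 16 days after that. From each group 6 tumors were pooled, digested with collagenase, hyaluronidase and DNase, and sorted for live cells with the leukocyte antigen CD45 before single-cell 3' RNA sequencing. The hairpins were in the injected melanoma cells and not in the monocytes, although 1 of the deposited labels describes the shSdc1 sample as knocked out. Sdc1 itself was counted at 5 UMIs in 3 shSdc1 monocytes and at 0 UMIs in shRFP monocytes, which does not measure the knockdown, since the cells with the hairpin were sorted away. With 1 library of pooled tumors in each group there was no replicate check, so no test between the groups was made. Every interval given here is a 95% interval that covers counting error only. Intervals are exact Poisson for levels, exact Clopper-Pearson binomial for shares, and exact conditional binomial for ratios, each ratio being shSdc1 over shRFP unless another is named.

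Classical monocytes leave the bone marrow through the chemokine receptor Ccr2, carry high surface Ly6C in mice, and enter inflamed tissue and tumors. There they can mature into macrophages or into antigen-presenting cells, losing Ly6c2 and Chil3 (a chitinase-like secreted lectin also called Ym1) while complement C1q, Apoe or MHC class II genes come on. Hp encodes haptoglobin, which binds free hemoglobin, Ifitm6 belongs to the interferon-induced transmembrane family, and Plac8 encodes a small cysteine-rich protein that lymphocytes and plasmacytoid dendritic cells also make.

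The monocytes held 42459 UMIs in the shSdc1 library and 210818 in the shRFP library. The median monocyte had 654.5 UMIs and 439.5 genes in shSdc1 against 604 UMIs and 415 genes in shRFP, so the shSdc1 monocytes were slightly deeper. Mitochondrial UMIs had a median of 1.36% in shSdc1 monocytes and 1.92% in shRFP monocytes. The libraries shared 20 barcode sequences, of which 17 were kept. No barcode was a monocyte in both libraries, and 1 shRFP monocyte had a sequence that also occurred in the shSdc1 library. Levels below are in CPM, the UMIs of a gene scaled to a total of 1e+06 UMIs over the barcodes named.

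The selected barcodes were compared with other cells of the same libraries by their marker levels. Barcodes led by C1q numbered 1446 in shSdc1 and 941 in shRFP, and those led by the Il1b sum numbered 149 in shSdc1 and 702 in shRFP. They met the same conditions on Lyz2, the interferon sum, Cd3 and Cd209a, but had at least 4 UMIs in their own sum, which was the leading one. T barcodes, with at least 2 UMIs of Cd3d, Cd3e and Cd3g together and no Lyz2, served as background at median depths of 560.5 UMIs in shSdc1 and 502 UMIs in shRFP. Chil3 had a UMI in 44.8% of shSdc1 monocytes and 66.8% of shRFP monocytes, against 0.125% of shSdc1 T barcodes and 0.256% of shRFP T barcodes. Ly6c2 had a UMI in 58.6% of shSdc1 monocytes and 45.8% of shRFP monocytes, but its T-cell share was higher than that of Chil3, at 12.4% in shSdc1 and 6.65% in shRFP. Chil3, Hp and Ifitm6 were at 0 or 1 UMI over all T barcodes of a library, while Plac8 and Ly6c2 also appeared there. The near-identical paralog Ly6c1 had 0 UMIs in the monocytes of both libraries.

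**Figure D1:**
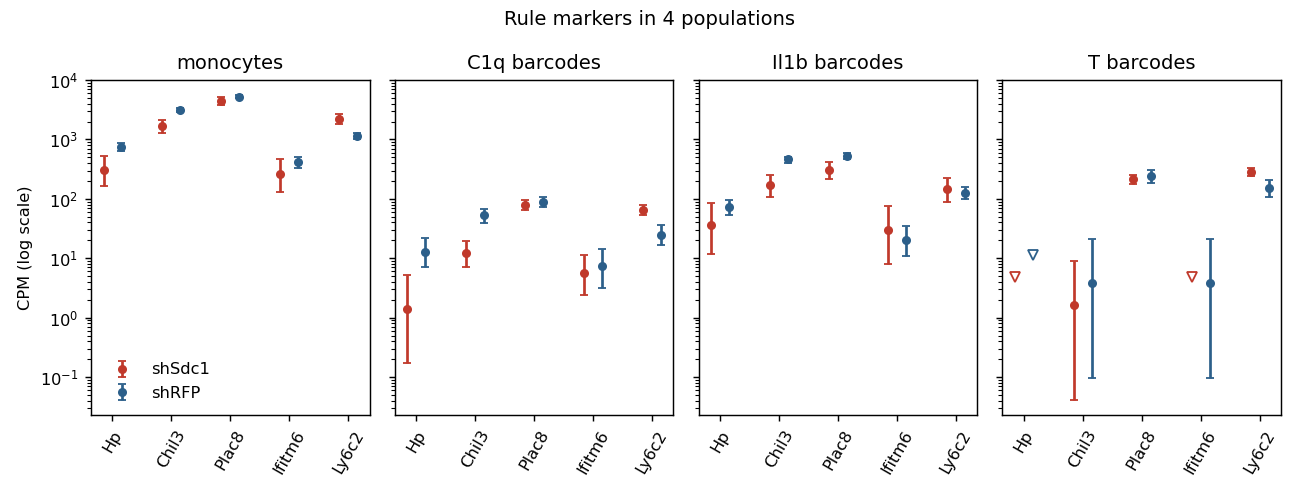
Levels (CPM, log axis) of the 5 genes that selected the monocytes, in monocytes, C1q barcodes, Il1b barcodes and T barcodes, shSdc1 left of shRFP. Bars are exact Poisson 95% intervals and open triangles are the level of 3 counts where no UMI was counted. All 5 genes were highest in monocytes, with Chil3 at 1672 CPM in shSdc1 and 3164 CPM in shRFP.

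Genes outside the selection set the monocytes apart from the C1q barcodes. Ccr2 reached 895 CPM in shSdc1 monocytes, against 127 CPM in shSdc1 C1q barcodes, and 669 CPM in shRFP monocytes, against 192 CPM in shRFP C1q barcodes. Ms4a6c and S100a4, a tetraspan membrane protein and a calcium-binding protein of monocytes, and Fn1, which encodes fibronectin, were likewise at least 2-fold higher in monocytes than in C1q barcodes of both libraries. Against the Il1b barcodes, 2 of 16 measured classical monocyte genes were at least 2-fold higher in both libraries (Ms4a4c and Ms4a6c) and 3 were lower (Cd14, Lpl and Thbs1), with median log2 ratios of -0.52 in shSdc1 and -0.05 in shRFP. Fn1 was found in 41.4% of monocytes and 36.2% of Il1b barcodes in shSdc1, and in 39.5% of monocytes and 50.4% of Il1b barcodes in shRFP. The classical monocyte genes thus did not set the monocytes apart from the Il1b barcodes as they did from the C1q barcodes. Vcan (versican), a marker of the classical monocyte, was sparse, at 47.1 CPM in shSdc1 monocytes and 190 CPM in shRFP monocytes.

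Markers of other cells were present at low levels. Neutrophil markers were at 70.7 CPM (3 UMIs) in shSdc1 monocytes, with 12 of 15 genes at 0, and at 294 CPM (62 UMIs) in shRFP monocytes, with 9 of 15 at 0, a ratio of 0.24 (0.048 to 0.74). Ly6g and Cxcr2 were at 0 in both libraries. The 8 granule and progenitor genes summed to 0 UMIs in shSdc1 and 14 UMIs in shRFP, 10 of them from Prtn3, with Elane and Mpo at 0 in both. Also at 0 in both libraries were all 9 basophil, mast cell and eosinophil markers and all 5 red cell genes. Melanoma genes summed to 1 UMI in shSdc1 and 0 in shRFP, fibroblast and endothelial genes to 2 UMIs in shSdc1 and 7 in shRFP. T cell genes outside the selection summed to 5 UMIs in shSdc1 and 15 in shRFP, and NK cell genes to 0 in shSdc1 and 3 in shRFP. Higher in shSdc1 monocytes were the markers of conventional dendritic cells, at 589 CPM in shSdc1 monocytes and 213 CPM in shRFP monocytes, and of B cells, at 777 CPM in shSdc1 and 199 CPM in shRFP. A UMI of the dendritic cell list was found in 24.1% of shSdc1 monocytes and 9.72% of shRFP monocytes, with Zbtb46 at 0 in both and Flt3 at 1 UMI in shSdc1 and 3 UMIs in shRFP. A UMI of the B cell list was found in 11 shSdc1 monocytes and 19 shRFP monocytes, with Ms4a1 at 6 UMIs in shSdc1 and 0 UMIs in shRFP. Plasmacytoid dendritic cell markers went the other way, like those of neutrophils, with 3 UMIs in shSdc1 and 49 UMIs in shRFP, most of them from the transcription factor gene Tcf4. In all, 24 shSdc1 monocytes (41.4%) and 76 shRFP monocytes (23.8%) had a UMI of the dendritic, plasmacytoid, T, NK or B cell lists. The main results below are also given without these barcodes where their value moves.

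Monocytes were fewer among the immune cells of shSdc1 tumors. They were 1.04% of kept barcodes in shSdc1 (0.791 to 1.34) and 6.11% in shRFP (5.47 to 6.79), a ratio of 0.170 (0.129 to 0.225). Of barcodes with Lyz2 and no Cd3 UMI they were 2.35% of 2468 in shSdc1 and 10.6% of 3002 in shRFP, a ratio of 0.221. The Il1b barcodes had a share of 2.67% in shSdc1 and 13.4% in shRFP (ratio 0.199), and the C1q barcodes one of 25.9% in shSdc1 and 18.0% in shRFP (ratio 1.44). Kept barcodes other than the Lyz2 barcodes without Cd3 were 55.7% in shSdc1 and 42.5% in shRFP. The Il1b barcodes thus also had a lower share in shSdc1 tumors, and the C1q barcodes a higher one. A share of sorted cells does not give cells per tumor, and with 1 pool each the spread between tumors cannot be told apart from the difference between groups.

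The difference in share remained at equal depth. After thinning every barcode to 500 UMIs and leaving out the shallower ones, monocytes were 32 of 3369 barcodes in shSdc1 and 178 of 3532 in shRFP, a ratio of 0.188. The same barcodes without thinning gave 47 (1.40%) in shSdc1 and 248 (7.02%) in shRFP. Requiring a UMI of Hp or Chil3 left 30 monocytes (0.538%) in shSdc1 and 247 (4.73%) in shRFP, a ratio of 0.114. Leaving out monocytes with a UMI of the other cell types left 34 (0.610%) in shSdc1 and 243 (4.65%) in shRFP, a ratio of 0.131.

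**Figure D2:**
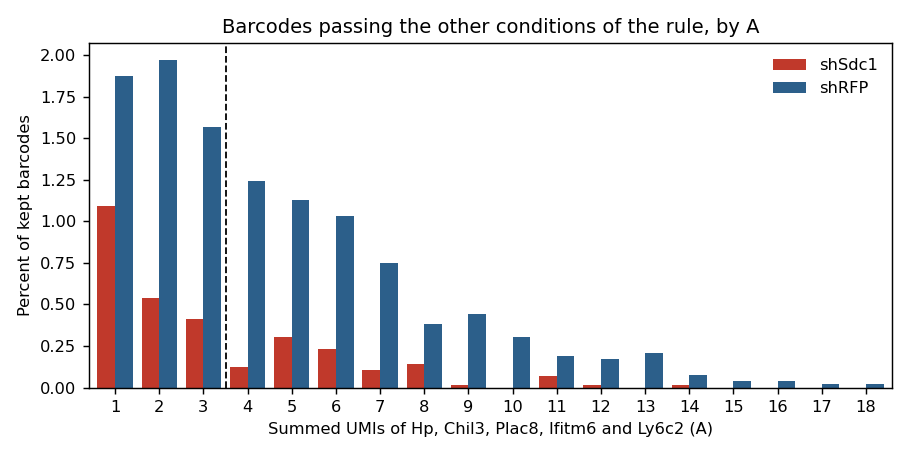
Percent of kept barcodes (vertical axis) by the monocyte sum in UMIs (horizontal axis), among barcodes that met the other conditions, for shSdc1 and shRFP; the dashed line marks the minimum of 4. The shSdc1 library has the smaller share on both sides of the line, with 53 barcodes at sums of 2 to 3 against 185 in shRFP.

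The steps of the selection removed different barcodes in the libraries. A monocyte sum of at least 4 was met by 173 shSdc1 barcodes and 483 shRFP barcodes. The condition against the Il1b sum removed 7 of these in shSdc1 and 73 in shRFP, and that against the C1q sum removed 16 in shSdc1 and 12 in shRFP. The Lyz2 condition removed 79 barcodes in shSdc1, more than it left, and 55 in shRFP. Just inside the threshold, at sums of 4 to 5, were 24 shSdc1 monocytes (41.4%) and 124 shRFP monocytes (38.9%). Just outside it, at sums of 2 to 3, 53 shSdc1 barcodes and 185 shRFP barcodes met every other condition. Hp or Chil3 was found in 45.8% of those just inside in shSdc1 and 67.7% in shRFP, and in 30.2% of those just outside in shSdc1 and 47.0% in shRFP.

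The 5 markers were not in the same proportion in the libraries. Chil3 was at 1672 CPM in shSdc1 monocytes and 3164 CPM in shRFP monocytes, a ratio of 0.53 (0.41 to 0.68). Hp was at 306 CPM in shSdc1 and 749 CPM in shRFP, a ratio of 0.41 (0.21 to 0.72). Plac8 was at 4404 CPM in shSdc1 and 5241 CPM in shRFP, and Ifitm6 at 259 CPM in shSdc1 and 417 CPM in shRFP. Ly6c2 alone was higher in shSdc1, at 2214 CPM against 1153 CPM in shRFP, a ratio of 1.92 (1.5 to 2.45). Its ratio was also above 1 outside the monocytes, at 2.62 in C1q barcodes, 1.85 in T barcodes and 1.18 in Il1b barcodes, where the interval included 1. Of all marker UMIs that selected the monocytes, Plac8 gave 49.7% in shSdc1 and 48.9% in shRFP, Chil3 18.9% in shSdc1 and 29.5% in shRFP, and Ly6c2 25% in shSdc1 and 10.7% in shRFP. Monocytes with Ly6c2 and without Chil3 were 20 (34.5%) in shSdc1 and 46 (14.4%) in shRFP, while those with Chil3 and without Ly6c2 were 12 (20.7%) in shSdc1 and 113 (35.4%) in shRFP. Barcodes with neither Hp nor Chil3, chosen on Plac8, Ly6c2 or Ifitm6, were 28 (48.3%) of the shSdc1 monocytes and 72 (22.6%) of the shRFP monocytes. Since this mix of barcodes differed, the main results that follow are also given for monocytes with a UMI of Hp or Chil3.

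Within the monocytes, 815 genes had at least 50 UMIs over both libraries. Of these, 79 (9.69%) were at least 1.5-fold higher in shSdc1 and 147 (18%) at least 1.5-fold lower. The minimum counted both libraries together, and shRFP monocytes gave 210818 UMIs against 42459 in shSdc1. A lower gene could thus pass on shRFP UMIs alone, so higher and lower genes were not filtered alike. The minimum of 20 UMIs used below has the same limit. Counting intervals excluded 1 for 45 of the higher and 57 of the lower genes. The split depends on the scaling, since TMM gave 33 higher and 247 lower, and median-of-ratios 32 higher and 283 lower. These scalings shift every log2 ratio by -0.26 and -0.31, which leaves the order of the genes as it is. Gene groups are described with all genes that had at least 20 UMIs, of which there were 2138. Among those, 359 (16.8%) were higher and 512 (23.9%) lower by 1.5-fold, and the median log2 ratio was -0.05.

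MHC class II genes, which present peptides to CD4 T cells, had the highest median of all lists in shSdc1 monocytes. Of 6 measured genes of that list, 4 were higher, against 16.8% of all genes, and none was lower, with a median log2 ratio of 1.42. H2-Aa, the alpha chain of I-A (chromosome 17, 34282744 to 34287823, mm10), was at 3415 CPM in shSdc1 and 787 CPM in shRFP, a ratio of 4.34 (3.45 to 5.45). H2-Eb1, the beta chain of I-E, was at 2944 CPM in shSdc1 and 740 CPM in shRFP, a ratio of 3.98 (3.12 to 5.07). H2-Ab1, the partner of H2-Aa, was at 3062 CPM in shSdc1 and 968 CPM in shRFP, a ratio of 3.16 (2.52 to 3.96). All 3 chains were thus more than 3-fold higher, while Cd74, the invariant chain that escorts them, was at 7678 CPM in shSdc1 and 3415 CPM in shRFP, a ratio of 2.25 (1.97 to 2.57). H2-DMa and H2-DMb1, which load the peptide, had ratios of 0.89 and 1.42, both with intervals that included 1.

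The promoters of H2-Aa and H2-Eb1, the chains with the highest ratios, are shown with the Y box in capitals, a motif of class II promoters bound by the factor NF-Y. The letters searched were CTGATTGG on both strands, in the 150 bases before each gene's start, and the sequences are from RefSeq (GRCm38.p6), 5' to 3' on the gene's strand.
H2-Aa (chr17:34287824-34287973, minus strand): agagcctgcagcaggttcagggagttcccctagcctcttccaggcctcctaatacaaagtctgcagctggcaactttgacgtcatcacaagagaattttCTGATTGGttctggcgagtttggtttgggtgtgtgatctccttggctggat
H2-Eb1 (chr17:34305717-34305866, plus strand): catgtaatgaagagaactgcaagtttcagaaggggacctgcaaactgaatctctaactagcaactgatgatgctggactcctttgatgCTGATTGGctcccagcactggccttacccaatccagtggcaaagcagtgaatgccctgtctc
The match begins 51 bases before the start of H2-Aa and 62 bases before that of H2-Eb1. The same letters occur in 1039 of 32851 promoter windows of this length (3.16%), and a match is a description of the sequence and not a measured binding site.

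The MHC class II difference was spread unevenly over the barcodes and over the monocyte sum. At sums of 4 to 5, next to the threshold, Cd74 was at 9752 CPM in shSdc1 (24 barcodes) and 2816 CPM in shRFP (124 barcodes). At sums of 6 to 9 it was at 4184 CPM in shSdc1 (28 barcodes) and 4412 CPM in shRFP (136 barcodes), so no excess was seen there. At sums of 10 and over it was at 13516 CPM in shSdc1 and 2210 CPM in shRFP, with 6 barcodes in shSdc1 and 59 in shRFP. Monocytes with no UMI of H2-Aa, H2-Ab1, H2-Eb1 or Cd74 were 17 (29.3%) in shSdc1 and 172 (53.9%) in shRFP. Those with at least 10 such UMIs were 16 (27.6%, 16.7 to 40.9) in shSdc1 and 33 (10.3%, 7.23 to 14.2) in shRFP. These high barcodes held 89.0% of the MHC class II UMIs of shSdc1 monocytes and 76.1% of those of shRFP monocytes. They were somewhat deeper than the rest, at a median of 897 UMIs in shSdc1 and 805 UMIs in shRFP. A UMI of another cell type's list was found in 11 of the 16 in shSdc1 and in 15 of the 33 in shRFP, and its part in the result was not tested beyond leaving those barcodes out. Thinned to 500 UMIs, H2-Aa was found in 40.4% of 47 shSdc1 monocytes and 12.9% of 248 shRFP monocytes, after 11 shallower ones in shSdc1 and 71 in shRFP were left out. Unthinned, the shares were 41.4% in shSdc1 and 14.4% in shRFP, against 2.76% of shSdc1 T barcodes and 4.60% of shRFP T barcodes.

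**Figure D3:**
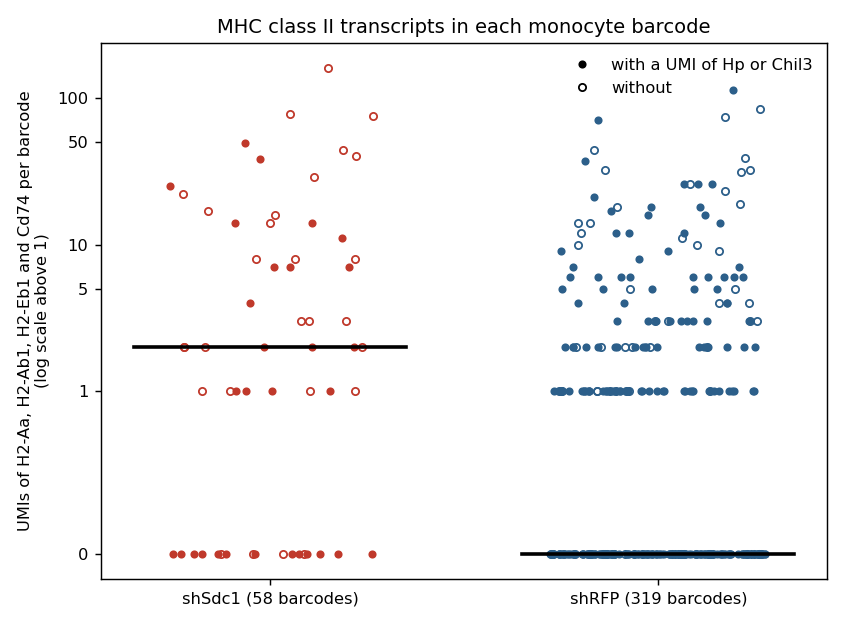
UMIs of H2-Aa, H2-Ab1, H2-Eb1 and Cd74 together in each monocyte (vertical axis), shSdc1 left of shRFP; filled points have a UMI of Hp or Chil3 and the line is the median. The median is 2 UMIs in shSdc1 and 0 UMIs in shRFP, and the highest barcode has 160 UMIs in shSdc1 and 113 UMIs in shRFP.

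The excess was smaller, but present, in the barcodes with the more selective markers. Over all monocytes the 4 genes together were at 17099 CPM in shSdc1 and 5910 CPM in shRFP, a ratio of 2.89 (2.64 to 3.17). In monocytes with a UMI of Hp or Chil3 they were at 8655 CPM in shSdc1 and 4261 CPM in shRFP, a ratio of 2.03 (1.72 to 2.39). In those with neither they were at 25754 CPM in shSdc1 and 11447 CPM in shRFP, a ratio of 2.25 (1.99 to 2.54). Barcodes without Hp and Chil3 thus had about the same ratio at a higher level. Without the barcodes that carried UMIs of other cell types, the 4 genes were at 8846 CPM in shSdc1 and 4420 CPM in shRFP, a ratio of 2.0 (1.70 to 2.35). The ratio was 1.13 (1.10 to 1.15) in C1q barcodes and 1.24 (1.19 to 1.30) in Il1b barcodes, both lower than in monocytes. These intervals take UMIs as independent, while 16 of the 58 shSdc1 monocytes held 89.0% of the MHC class II UMIs there. They are therefore too narrow, and the difference between the groups of barcodes was not tested.

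Other genes with a large excess were transcription factors, a complement receptor and cytoskeletal genes. Irf8, a factor needed for monocyte and dendritic cell development, was at 565 CPM in shSdc1 (24 UMIs) and 142 CPM in shRFP (30 UMIs), a ratio of 3.97 (2.22 to 7.03). With a UMI of Hp or Chil3 required, the Irf8 ratio was 2.42 with an interval of 0.943 to 5.53, which included 1. Irf7, which drives interferon genes, was at 683 CPM in shSdc1 and 237 CPM in shRFP, a ratio of 2.88 (1.76 to 4.64), and its ratio was 1.81 in C1q barcodes and 1.82 in Il1b barcodes. Id2, an inhibitor of basic helix-loop-helix factors, had a ratio of 2.38 (1.40 to 3.95), against 0.78 in C1q barcodes. In monocytes without any UMI of the Il1b or C1q sums both changed direction, with log2 ratios of -0.39 for Irf7 and -1.04 for Id2. C5ar1, the receptor for complement C5a, was at 471 CPM in shSdc1 and 166 CPM in shRFP, a ratio of 2.84 (1.55 to 5.05), while it was 0.630 (0.453 to 0.859) in Il1b barcodes. Aif1, an actin-binding protein of macrophages, had a ratio of 2.40, and the tubulin gene Tuba1b one of 3.05. D8Ertd738e and the mitochondrial leucyl-tRNA synthetase gene Lars2 had ratios of 3.02 and 2.29. Of the 12 most clearly higher genes, 9 were above 1 in C1q barcodes and 9 in Il1b barcodes. Their median log2 ratio was 1.56 in monocytes, 0.21 in C1q barcodes and 0.24 in Il1b barcodes. They were chosen as the most extreme in monocytes, so the larger median there follows from the choice.

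The most clearly lower genes in shSdc1 monocytes included the early-response gene Jun, the heat shock genes Hspa1a and Hspa1b, and Cebpd. Cebpd, a C/EBP factor of inflammatory myeloid cells (chromosome 16, 15887286 to 15891031, mm10), had 0 UMIs in shSdc1 and 57 UMIs (270 CPM) in shRFP. Against a floor of 3 counts in the shSdc1 library it was at least 3.83-fold lower. The Cebpd ratio was 0.73 in C1q barcodes and 1.02 in Il1b barcodes, both with intervals that included 1. Jun, an AP-1 subunit, was at 565 CPM in shSdc1 and 1494 CPM in shRFP, a ratio of 0.38 (0.24 to 0.57). Gsr, which encodes glutathione reductase, was at 236 CPM in shSdc1 and 768 CPM in shRFP, a ratio of 0.31 (0.14 to 0.58). Nfe2l2, the gene of the antioxidant factor NRF2, had 3 UMIs in shSdc1 and 80 UMIs in shRFP, a ratio of 0.19 (0.038 to 0.56). Ccl3, an inflammatory chemokine, was at 353 CPM in shSdc1 and 930 CPM in shRFP, a ratio of 0.38 (0.21 to 0.64). Malt1, a protease in NF-kB signaling, had 2 UMIs in shSdc1 and 79 in shRFP, and the bacterial lipoprotein receptor gene Tlr2 had 2 in shSdc1 and 56 in shRFP. Ccl24, an eosinophil chemokine, had 2 UMIs in shSdc1 and 58 in shRFP. Uqcrfs1, a subunit of mitochondrial complex III, had 1 UMI in shSdc1 and 50 in shRFP, and Rilpl2 had 3 in shSdc1 and 66 in shRFP. Of the 12 most clearly lower genes, 11 were below 1 in C1q barcodes and 10 in Il1b barcodes, with median log2 ratios of -0.39 and -0.50 there. These genes too were chosen by their values in monocytes. Each had at least 50 UMIs in shRFP monocytes alone, so each could pass the minimum through the group where it was higher. The shares of all genes above or below 1 in the C1q and Il1b barcodes are not given here.

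**Figure D4:**
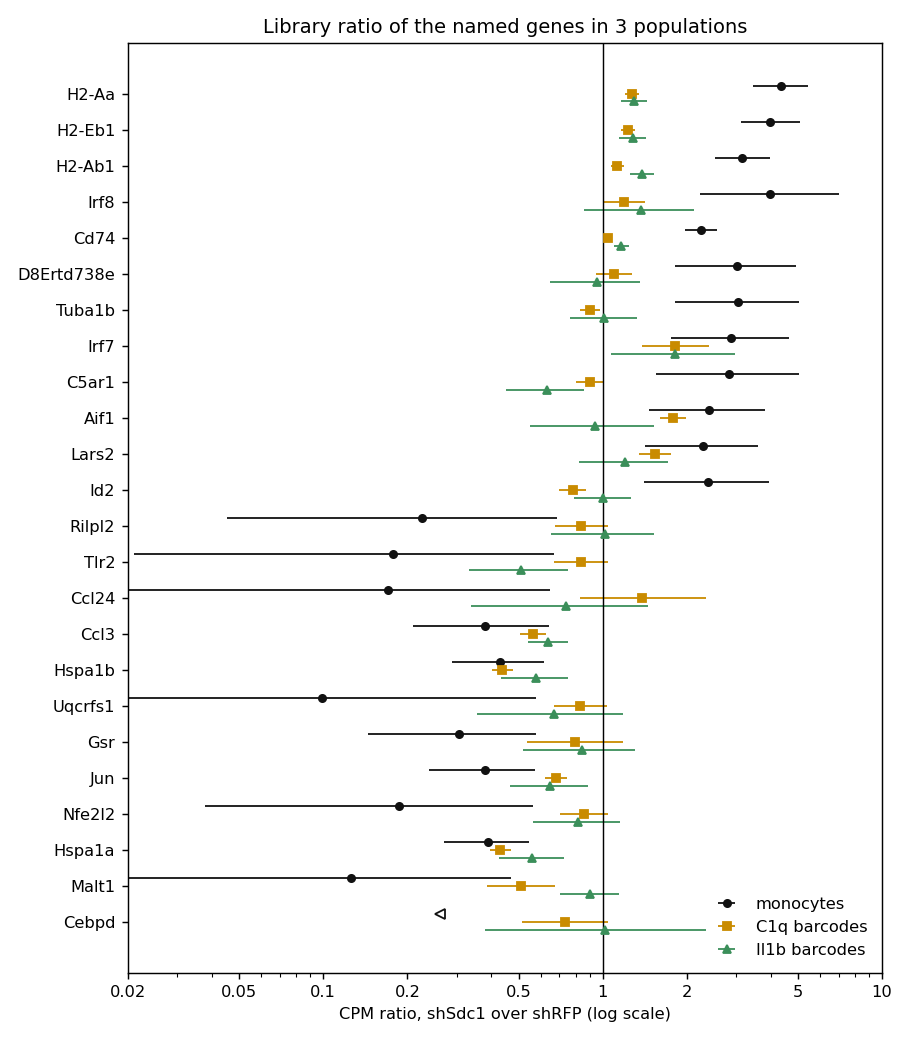
Ratio of shSdc1 over shRFP (log axis) for the 12 most clearly higher and 12 most clearly lower genes in monocytes, C1q barcodes and Il1b barcodes, with 95% intervals; the open triangle is the bound for Cebpd. H2-Aa has a ratio of 4.34 in monocytes and 1.27 in C1q barcodes. The genes were chosen by their values in monocytes.

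The heat shock chaperone genes Hspa1a and Hspa1b lie side by side on chromosome 17 and are near-identical, so reads may be split between them and their separate values are uncertain. Hspa1a was at 871 CPM in shSdc1 and 2234 CPM in shRFP, and Hspa1b at 754 CPM in shSdc1 and 1760 CPM in shRFP. Counted together they were at 1625 CPM in shSdc1 and 3994 CPM in shRFP, a ratio of 0.41 (0.31 to 0.52). The pair's ratio was 0.51 in monocytes with Hp or Chil3, 0.24 in those without UMIs of other cell types, 0.43 in C1q barcodes and 0.57 in Il1b barcodes. It was therefore below 1 in every group of barcodes that was measured. Their promoters are shown to let the copies be compared, with the heat shock element in capitals, found as GAANNTTC on both strands in the same RefSeq windows.
Hspa1a (chr17:34972157-34972306, minus strand): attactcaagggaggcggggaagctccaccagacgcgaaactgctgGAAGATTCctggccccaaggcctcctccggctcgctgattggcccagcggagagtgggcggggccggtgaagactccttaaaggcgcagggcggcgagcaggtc
Hspa1b (chr17:34959239-34959388, minus strand): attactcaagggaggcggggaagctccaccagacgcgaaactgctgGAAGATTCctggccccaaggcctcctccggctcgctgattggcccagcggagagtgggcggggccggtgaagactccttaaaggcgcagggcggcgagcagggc
The windows differ at 1 of 150 bases, the element begins 104 bases before each start, and its letters occur in 1297 of 32851 promoter windows (3.95%). Each window also holds a CTGATTGG match in lower case, and that of H2-Aa a GAANNTTC match.

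The whole list of dissociation stress genes, early-response and heat shock genes that respond to tissue digestion, had the lowest median. Of its 26 measured genes 14 were lower, against 23.9% of all genes, and none was higher, with a median log2 ratio of -0.61. The list summed to 20796 CPM in shSdc1 monocytes and 31207 CPM in shRFP monocytes, a ratio of 0.67 (0.62 to 0.72). Its sum had a ratio of 0.66 (0.64 to 0.67) in C1q barcodes and 0.92 (0.88 to 0.95) in Il1b barcodes, with median log2 ratios of -0.58 and -0.35. The lower level was thus not limited to monocytes. Atf3, a stress-induced factor, had a ratio of 0.50, Zfp36, which encodes an mRNA-destabilizing protein, one of 0.55, and the nuclear receptor gene Nr4a1 one of 0.48. Whether handling of the pools differed was not tested.

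Classical monocyte genes outside the selection were also lower on balance. Of 20 measured, 10 were lower, against 23.9% of all genes, and none was higher. The median log2 ratio was -0.51, and the sum was 13330 CPM in shSdc1 against 17124 CPM in shRFP (ratio 0.78, 0.71 to 0.85). Thbs1, which encodes thrombospondin, was at 1390 CPM in shSdc1 and 2282 CPM in shRFP, a ratio of 0.61 (0.46 to 0.80). Emilin2, an extracellular matrix protein, had a ratio of 0.47 (0.22 to 0.90), and the lipopolysaccharide co-receptor gene Cd14 one of 0.65 (0.45 to 0.93). Vcan had 2 UMIs in shSdc1 and 40 in shRFP. Other defining genes had intervals that included 1, with Ms4a6c at a ratio of 0.99, the integrin gene Itgam at 1.03 and S100a4 at 0.91. Ccr2 was at 895 CPM in shSdc1 and 669 CPM in shRFP, a ratio of 1.34 whose interval (0.91 to 1.93) included 1. The median of the list was -0.61 in monocytes with Hp or Chil3 and -0.22 without the barcodes that carried UMIs of other cell types. Its sum ratio was 0.81 (0.78 to 0.83) in C1q barcodes and 0.87 (0.83 to 0.91) in Il1b barcodes. A lower sum was thus also seen outside the monocytes.

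Genes of macrophage maturation were higher. Of 18 measured, 8 were higher, against 16.8% of all genes, and none was lower, with a median log2 ratio of 0.45 and a sum of 12294 CPM in shSdc1 against 8405 CPM in shRFP (ratio 1.46, 1.32 to 1.61). Apoe, a lipid carrier, was at 2025 CPM in shSdc1 and 1176 CPM in shRFP, a ratio of 1.72 (1.33 to 2.21). Cd63, a lysosomal tetraspanin, had 16 UMIs in shSdc1 and 10 in shRFP, a ratio of 7.94 (3.39 to 19.6). Ms4a7 had 15 UMIs in shSdc1 and 13 in shRFP, and Trem2, a lipid receptor of macrophages, 10 in shSdc1 and 18 in shRFP. Apoe was also higher in C1q barcodes (ratio 1.68) and in Il1b barcodes (1.97). The sum of the list was higher there too, at a ratio of 1.33 (1.31 to 1.34) in C1q barcodes and 1.09 (1.05 to 1.14) in Il1b barcodes. In monocytes with Hp or Chil3 the Apoe ratio was 1.24 (0.84 to 1.79). Of 13 measured genes of the list, 2 were higher and 1 lower in those monocytes, with a sum ratio of 1.34 (1.17 to 1.54). The list stayed higher without barcodes that carried UMIs of other cell types, where its sum ratio was 1.96 (1.74 to 2.21). A C1q UMI, which the selection limits but does not forbid, was found in 14 shSdc1 monocytes (24.1%) and 27 shRFP monocytes (8.46%).

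Genes of MHC class I, the type I interferon response and interferon gamma were higher on balance, but their sum ratios were smaller with a UMI of Hp or Chil3 required. For MHC class I, 8 of 11 genes were higher, against 16.8% of all genes, and 1 was lower. The median log2 ratio was 0.67 and the sum ratio 1.39 (1.25 to 1.54). With a UMI of Hp or Chil3 required, 2 of 8 were higher and 1 lower, the median was 0.19, and the sum ratio of 1.15 had an interval (0.98 to 1.34) that included 1. The MHC class I sum was also higher in C1q barcodes, at a ratio of 1.38 (1.34 to 1.42), and in Il1b barcodes, at 1.26 (1.17 to 1.35). B2m, the common light chain, was at 3132 CPM in shSdc1 and 1959 CPM in shRFP, a ratio of 1.60 (1.31 to 1.95), and the peptide transporter gene Tap1 had a ratio of 2.38. Members of the H2-Q and H2-T families share sequence, so their separate counts are uncertain. For type I interferon genes outside the selection, 10 of 26 were higher and none lower, with a median log2 ratio of 0.46. Isg15, a ubiquitin-like modifier, was at 683 CPM in shSdc1 and 403 CPM in shRFP, and Bst2 (tetherin) at 730 CPM in shSdc1 and 356 CPM in shRFP. With a UMI of Hp or Chil3 required, the type I interferon median was 0.01, with 3 of 22 higher and 7 lower. In barcodes without Hp and Chil3 the median was 0.53, and the difference between these barcodes was not tested. In C1q barcodes the median was 0.44 and in Il1b barcodes 0.05. For interferon gamma genes, 5 of 12 were higher and 2 lower, and the immunoproteasome gene Psmb9 had a ratio of 2.32.

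**Figure D5:**
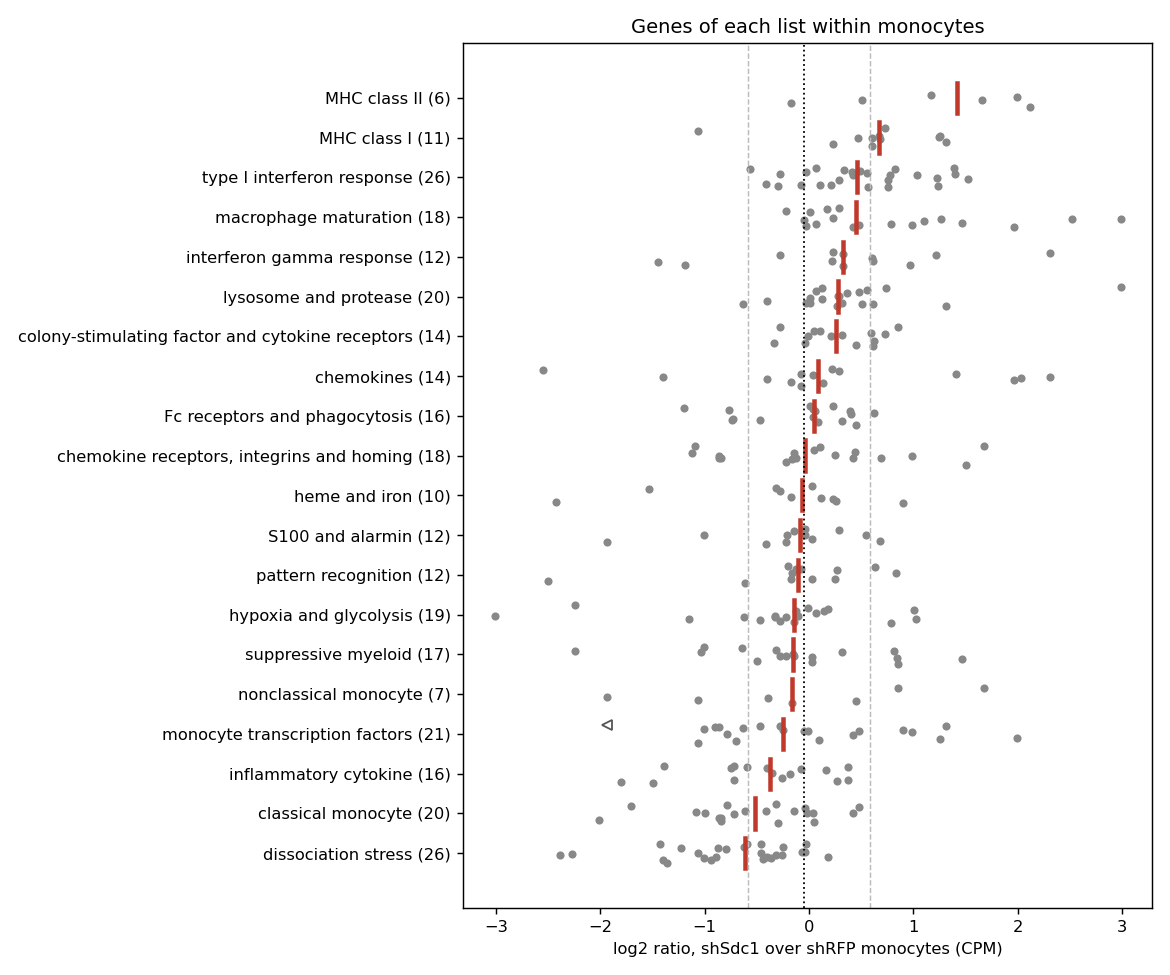
Log2 ratio of shSdc1 over shRFP in monocytes for each gene with at least 20 UMIs (dots), by gene list, with the list median as a red bar; the dotted line is the median of all genes and the dashed lines mark 1.5-fold. The open triangle is the bound for Cebpd. MHC class II has the highest median (1.42) and dissociation stress the lowest (-0.61).

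Monocyte transcription factors were mixed, with 5 of 21 higher and 8 lower, where 16.8% of all genes were higher and 23.9% lower. Cebpb, the C/EBP factor of monocytes, was at 2379 CPM in shSdc1 and 3695 CPM in shRFP, a ratio of 0.64 (0.52 to 0.79), which was 0.84 (0.65 to 1.08) in monocytes with Hp or Chil3. Spi1, the gene of the myeloid factor PU.1, had a ratio of 0.99, and Klf2 and Zeb2 had ratios of 0.55 and 0.62. Of 18 homing receptors and integrins, 4 were higher and 5 lower, near those shares. Cx3cr1, the fractalkine receptor, had 9 UMIs in shSdc1 and 14 in shRFP, a ratio of 3.19 (1.22 to 7.92), and the adhesion receptor gene Cd44 a ratio of 0.56 (0.34 to 0.88). Nonclassical monocyte genes had a median of -0.16, with 2 of 7 higher and 2 lower, too few to set against those shares.

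Inflammatory cytokine genes were lower on balance. Of 16 inflammatory cytokine genes outside the selection 7 were lower, against 23.9% of all genes, and none higher. The median log2 ratio was -0.38 and the sum ratio 0.78. In C1q barcodes the median was -0.52 and the sum ratio 0.62, and in Il1b barcodes they were -0.06 and 0.93. The lower sum was thus not particular to the monocytes. Sod2, a mitochondrial superoxide dismutase, had 4 UMIs in shSdc1 and 69 in shRFP, a ratio of 0.29 (0.076 to 0.77), while the neutrophil chemokine gene Cxcl2 had a ratio of 0.95 (0.77 to 1.17). Without barcodes that carried UMIs of other cell types the sum ratio of this list was 1.04. Among 14 chemokines 4 were higher and 2 lower, against 16.8% and 23.9% of all genes. The list had a median of 0.09 whose direction depended on the barcodes and the scaling. It was -0.29 with a UMI of Hp or Chil3 required, with 1 of 10 higher and 4 lower. Leaving out barcodes that carried UMIs of other cell types, 4 of 10 were higher and 2 lower, and the sum ratio was 1.51 (1.34 to 1.70). The median was 0.46 there. At monocyte sums of at least 6 it was -0.88, and without any UMI of the Il1b or C1q sums -0.68. Ccl5, a lymphocyte attractant, had 15 UMIs in each library, a ratio of 4.97 (2.26 to 10.9), and Ccl12 had 14 in shSdc1 and 17 in shRFP, a ratio of 4.09. The monocyte chemokine gene Ccl2 had a ratio of 0.95.

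Other lists had medians between -0.16 and 0.28. Their counts stand beside 16.8% of all genes higher and 23.9% lower over all monocytes. Of 14 receptors for colony-stimulating factors and cytokines 5 were higher and none lower, with Csf1r at a ratio of 1.07 and Csf2ra, a chain of the GM-CSF receptor, at 1.54, both with intervals that included 1. The lysosome list had 4 of 20 higher, a share close to the background, among them Npc2, a cholesterol carrier, at 1.67, and the cystatin gene Cst3 at 1.53. Leaving out barcodes that carried UMIs of other cell types, 9 of 18 lysosome genes were higher and 1 lower. The median was then 0.60 and the sum ratio 1.46 (1.33 to 1.59). Fc receptor and phagocytosis genes had 1 of 16 higher and 4 lower, hypoxia and glycolysis genes 3 of 19 higher and 4 lower, pattern recognition genes 2 of 12 each way, and heme and iron genes 1 of 10 higher and 2 lower. With a UMI of Hp or Chil3 required, 1 of 17 hypoxia and glycolysis genes was higher and 9 were lower. Their median was -0.47 and their sum ratio 0.73 (0.61 to 0.86). Without barcodes that carried UMIs of other cell types, that sum ratio was 1.04 and the heme and iron one 1.33 (1.22 to 1.45). Suppressive myeloid genes had 4 of 17 higher and 4 lower, with the arginase gene Arg1 at 659 CPM in shSdc1 and 375 CPM in shRFP, and Spp1 (osteopontin) at a ratio of 0.86. S100 and alarmin genes had 1 of 12 higher and 2 lower, with the antiprotease gene Slpi at 3 UMIs in shSdc1 and 57 in shRFP and Wfdc17 at a ratio of 0.50. The medians of the chemokine, Fc receptor, lysosome and cytokine receptor lists were 0.09, 0.05, 0.28 and 0.26. The chemokine and Fc receptor medians were below 0 with TMM scaling, and all 4 were below 0 with median-of-ratios scaling. Proliferation genes summed to 966 CPM in shSdc1 and 408 CPM in shRFP.

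Monocytes were also set against the C1q barcodes of the same library. The groups were chosen on their marker genes, so these differences are given as levels and not as tests. Genes needed at least 50 UMIs in monocytes and C1q barcodes together in each library, which C1q UMIs alone could meet. Of 3558 such genes, 159 (4.47%) were at least 2-fold higher in monocytes of both libraries and 186 (5.23%) at least 2-fold lower. Napsa, an aspartic protease gene, was 18.4-fold higher in shSdc1 and 13.4-fold in shRFP. Gsr was 5.92-fold higher in shSdc1 and 15.4-fold in shRFP, so its lower level in shSdc1 monocytes still lay above that of macrophage-type barcodes. The adhesion receptor gene Adgre5 (CD97) was 7.89-fold higher in shSdc1 and 12.2-fold in shRFP, and Itga4, an integrin chain, 8.13-fold in shSdc1 and 5.39-fold in shRFP. Thbs1 was 5.65-fold higher in shSdc1 and 6.47-fold in shRFP, and the coagulation factor gene F10 6.21-fold in shSdc1 and 5.47-fold in shRFP. Slfn1, Cytip, Tppp3, Ms4a4c and Lsp1 were also among the highest 12, at 5.29-fold to 10.1-fold. Apoe was lower, at 0.147 of the C1q level in shSdc1 and 0.144 in shRFP, and the mannose receptor gene Mrc1 at 0.171 in shSdc1 and 0.137 in shRFP. Ccl8, a chemokine of resident macrophages, was at 0.137 in shSdc1, and with 0 UMIs in shRFP monocytes it was at least 37.9-fold lower there. Type I interferon genes were 2-fold higher in both libraries for 20 of 26 genes and lower for none, although the selection capped the interferon sum in both groups. Classical monocyte genes were higher for 12 of 18 and lower for 1 (Lpl), and macrophage maturation genes were higher for none and lower for 21 of 28. The MHC class II list had medians of opposite sign, with a log2 ratio of monocytes over C1q barcodes of 0.50 in shSdc1 and -0.79 in shRFP.

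Set against the Il1b barcodes, fewer genes could be compared. Genes again needed 50 UMIs in both groups of barcodes together in each library, which Il1b UMIs alone could meet. Il1b barcodes held 135378 UMIs against 42459 of monocytes in shSdc1, and 630519 against 210818 in shRFP. Of 562 genes, 10 (1.78%) were at least 2-fold higher in monocytes of both libraries and 50 (8.9%) at least 2-fold lower. Higher and lower genes were thus not filtered alike. Of the type I interferon list, 6 of 12 measured genes were among the higher ones and none was lower. Ifitm3, an antiviral membrane protein, was 3.02-fold higher in shSdc1 and 2.65-fold in shRFP, and Irf7 was 4.02-fold higher in shSdc1 and 2.53-fold in shRFP. Ly6e, Ly6a, Samhd1, Ms4a6c and Msrb1 were between 2.5-fold and 3.23-fold higher in both. Of measured inflammatory cytokine genes 9 of 14 were lower, of chemokines 6 of 10, and of pattern recognition genes 4 of 4, against 8.9% of all genes. These counts share the limit of the minimum. Cxcl1 was at 0.052 of the Il1b level in shSdc1 and 0.045 in shRFP, Cxcl2 at 0.202 in shSdc1 and 0.198 in shRFP, and Tnf at 0.148 in shSdc1 and 0.250 in shRFP. Mgl2, a lectin gene of dendritic cells and macrophages, had 0 UMIs in monocytes of both libraries and was at least 5.85-fold lower in shSdc1 and at least 9.03-fold lower in shRFP. The MHC class II median against Il1b barcodes was -0.02 in shSdc1 and -1.35 in shRFP.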

How the data were processed

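Single-cell libraries of CD45+ cells, 1 per group, were analysed. The authors deposited UMI counts per gene and barcode, produced, per the file headers, by Cell Ranger 6.1.1 and with the mm10 build per the submitters' processing notes; other settings are not given in the sources used here. Shares, CPM sums and ratios were computed from these counts with Python 3.11.15, numpy 2.4.6, scipy 1.17.1 and pandas 2.3.3. Only the ratio interval was tested on simulated data. These were independent Poisson counts per gene, so the gathering of UMIs in few barcodes was not covered. The members and the gene lists were chosen with earlier results of these data known. Of 531 listed genes 5 had no match. Named genes were those with at least 50 UMIs and past 1.5-fold in a direction, taking 12 each way by the interval bound closest to 1; selection, mitochondrial, ribosomal, hemoglobin, immunoglobulin, T cell receptor, Xist, Y-linked and unnamed genes were left out. Against each neighbour, 12 each way were taken by the smaller of both libraries' ratios. Members of the lists could be named besides from 20 UMIs. A few genes that met these rules are not reported here. List medians put a gene at 0 UMIs at the floor of 3 counts. Intervals are 95%. Scrublet (scanpy 1.11.5) set thresholds that marked 0 shSdc1 barcodes and 1 shRFP barcode, so it had not worked and no doublet was removed; an alternative removed the 249 and 218 highest scores. TMM (edgeR 4.0.16) and median-of-ratios factors (DESeq2 1.42.0), on the summed counts in R 4.3.3, were used for scaling only. Other alternatives changed the gene, mitochondrial, marker-sum and UMI minimums and the barcodes included.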

Additional observations from a re-analysis of the deposited data

Results flagged for a closer look

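C5ar1 stood out because monocytes and Il1b barcodes moved in opposite directions. Its ratio of shSdc1 over shRFP was 2.84 (1.55 to 5.05) in monocytes and 0.630 (0.453 to 0.859) in Il1b barcodes, with both intervals on their own side of 1. In monocytes it rested on 20 UMIs in shSdc1 and 35 UMIs in shRFP, and in Il1b barcodes on 46 UMIs in shSdc1 and 340 UMIs in shRFP. With 1 library per group the difference between the groups of barcodes was not tested.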

How the results depend on the processing

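The share ratio of 0.170 stayed below 1 under every alternative, at 0.286 with at least 500 genes per barcode and 0.114 with a UMI of Hp or Chil3 required. The counts of 79 higher and 147 lower genes became 26 and 56 with at least 500 genes per barcode, 32 and 62 without any UMI of the Il1b or C1q sums, 33 and 247 with TMM, 32 and 283 with median-of-ratios, 359 and 512 from 20 UMIs, and 21 and 64 from 100 UMIs. With Hp or Chil3 required 42 were higher, and of 40 of the higher genes that could be measured there 19 were still past 1.5-fold and 37 above 1. Without the top barcode of each gene the split was 53 higher and 208 lower. The MHC class II median of 1.42 became 1.74 with doublet removal, 0.87 with a monocyte sum of at least 6, 0.96 with Hp or Chil3, 0.88 without other-type UMIs, 1.10 with median-of-ratios and 1.69 without a UMI minimum. Over the gene lists, 9 of 299 alternative medians were marked as moved and none as reversed in a call. The other 290 were not all close to the main ones. With at least 500 genes per barcode the inflammatory cytokine median went from -0.38 to -0.79, and the macrophage maturation median from 0.45 to 0.14. Among named genes 32 of 286 values were marked as moved and 3 as reversed on the log2 scale. Reversed were Hspa1b at 0.36 with at least 500 genes, and Irf7 at -0.39 and Id2 at -1.04 without any UMI of the Il1b or C1q sums. The other 251 could also shift, as Uqcrfs1 did from -3.33 to -1.98 with at least 500 genes. The causes were not tested. No paired analysis was possible because each group had 1 library, and for the same reason no replicate could be left out. The 58 shSdc1 monocytes limit depth, since the floor of 3 counts is 70.7 CPM in shSdc1 monocytes and 14.2 CPM in shRFP monocytes.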
